A study of Homo sapiens with 6 samples.

Results

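The genes described here are 47 human genes that license replication origins, fire them, copy DNA at the fork and supply its building blocks. All 47 of the listed genes were measured, among 18132 genes with a value. A probe set, the group of array probes that reports 1 transcript region, was used where the platform annotation names only 1 gene, with symbols updated through Entrez identifiers. Each gene took its value from the probe set with the highest mean over the 6 samples. The list has 126 such probe sets, with 13 genes resting on a single one and up to 7 for a gene, and the other probe sets served as a check.

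RNA came from U87 cells, an established human glioblastoma line, with miR-151a overexpressed (miR-151a UP) or with a control microRNA overexpressed in its place (miR-NC). Each group had 3 samples on 1-colour arrays with biotin labelling. The labels name no drug, time point or further genetic change. The sources used here do not give the vector, the arm of the microRNA, the time after its introduction, or whether replicates came from separate cultures. The p-values therefore reflect only how far these samples spread, and that spread may be technical.

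Replication starts when the origin recognition complex (ORC), with CDC6 and CDT1, loads the ring-shaped MCM helicase onto DNA in G1, while geminin (GMNN) blocks CDT1 later in the cycle. The DBF4-CDC7 kinase and the factors CDC45 and GINS turn the loaded ring into an active helicase. Polymerase alpha and primase start each strand, replication factor C (RFC) places the sliding clamp PCNA, and polymerases delta and epsilon extend the strands. Ribonucleotide reductase, thymidylate synthase and thymidine kinase make the deoxynucleotides. Many of these genes are activated by E2F transcription factors at the entry to S phase, and their messages are abundant in dividing tumour cells.

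Median probe set intensities of the 6 arrays ran from 57.1 to 58.6, and log2 values over genes correlated at 0.9982 to 0.9986 within groups and at 0.9958 to 0.9961 between groups. Precision is limited by having 6 arrays. The mesenchymal filament gene VIM was bright, at 18850.2 to 19437 with miR-151a UP and 18644 to 19565 with miR-NC, and CD44 was at 5431 to 5937 and 6036 to 6568. The astrocyte gene GFAP lay near the array medians, at 60.0 to 62.8 and 62.5 to 63.6, and SOX2, OLIG2 and S100B were no brighter than 67.9 in any sample. NES, a neural progenitor filament gene, was at 129, 131 and 142 with miR-151a UP and 167, 161 and 169 with miR-NC (adjusted p = 0.0079). The 8 measured markers of leukocytes, endothelium, epithelium, neurons and oligodendrocytes had intensities from 6.81 to 53.6, below every array median, with adjusted p from 0.058 to 0.95. For beta-actin, a control on RNA integrity, the 3′ probe set exceeded the 5′ probe set by 0.30, 0.29 and 0.27 on the log2 scale with miR-151a UP and by 0.41, 0.43 and 0.37 with miR-NC; for GAPDH the groups differed by 0.01. The part of these ratios in the results below was not tested.

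Many messages of the replication machinery were lower with miR-151a UP, with at least 1 gene past the test in every complex, and none of the 47 passed as higher. The share of genes that passed varied between complexes, though a difference between complexes was not tested. The origin recognition complex had 1 of 6 genes lower at a median of -0.06. In polymerase delta only POLD3 passed, and it did not pass when any 1 sample was left out. By limma, 26 of the 47 genes fell (55.3%) and 0 rose at an adjusted p of 0.05, where 8.11% of all 18132 genes fell, 7.27% rose and 15.4% changed in either direction. All 47 genes lay above the median gene level, and of the 9066 genes there 13.9% fell. At an unadjusted limma p under 0.05, 33 of the 47 genes were lower and 1, ORC4, was higher, where the share of all genes was not counted. The median log2 fold change was -0.22 (quartiles -0.32 and -0.12), against -0.023 for the genes above the median level and -0.009 for all genes. A value of -0.25 or below was reached by 19 of the 47 genes and by 4.98% of all genes. Every fold change is a difference of mean log2(intensity + 1), which understates the change of dim genes. The 26 falls ran from -0.42 for CDC7 to -0.17 for POLD3. In 38 of the 47 genes (80.9%) every sample with miR-151a UP lay below every miR-NC sample, which held for 19.4% of all genes and 31.2% of those above the median level. The opposite order held for 1 gene, ORC4, and for 15.1% of all genes. Across the 47 genes the fold change had no order with the level (Spearman rho -0.02, a description over genes that share the same 6 arrays). In RNA from whole cultures, fewer cells in S phase and less of these messages per cell cannot be told apart. Leaving out 1 sample left between 18 and 22 genes lower, and 18 genes passed in all 6 of these fits.

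**Figure D1:**
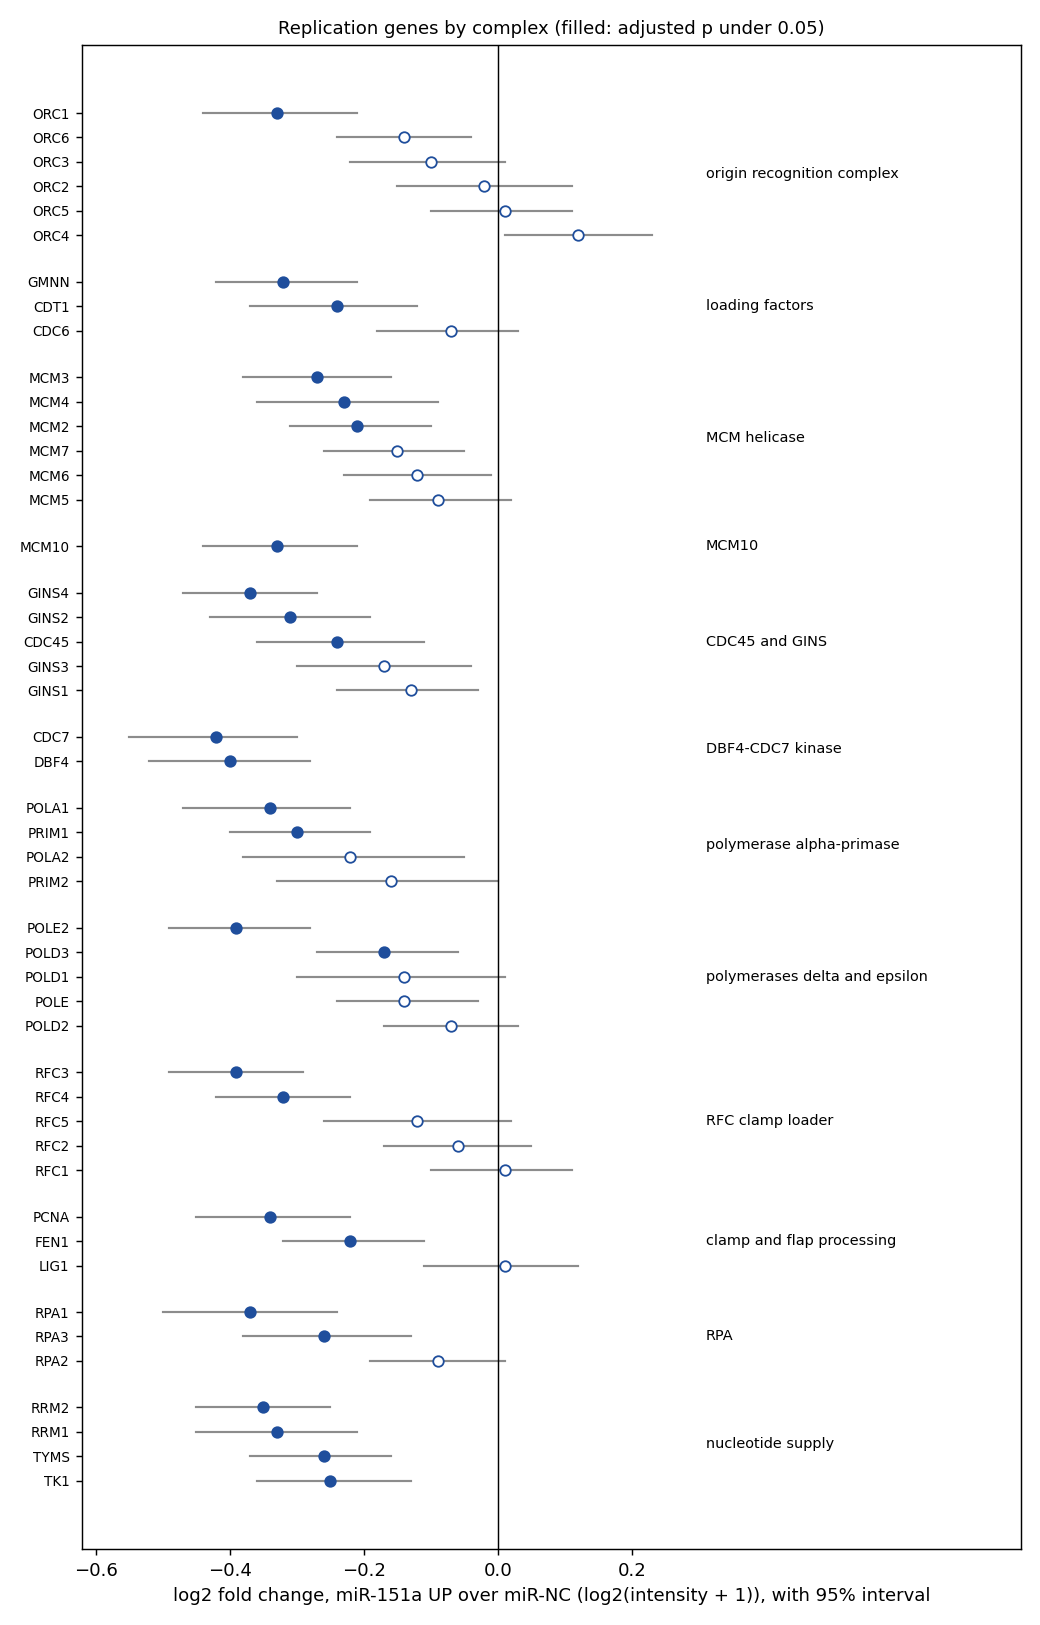
Log2 fold change of each gene (miR-151a UP over miR-NC, log2(intensity + 1) scale, points) with its 95% interval (lines), grouped by complex; filled points passed an adjusted p of 0.05. The 26 filled points lie between -0.42 and -0.17, and ORC4 at 0.12 is the highest point.

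**Figure D2:**
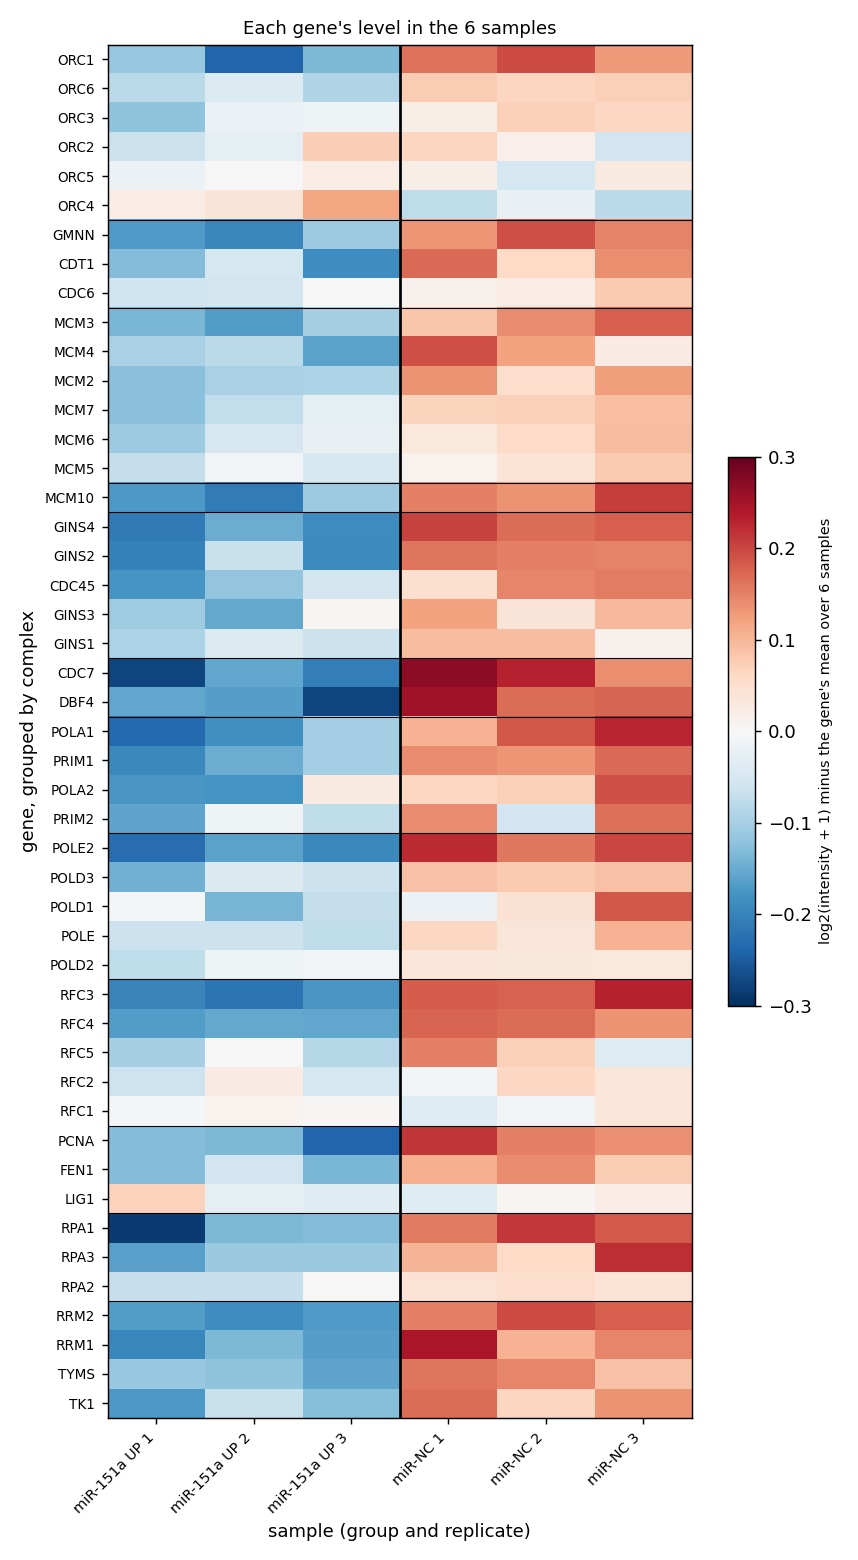
Level of each gene in each of the 6 samples as log2(intensity + 1) minus the gene's mean over the samples; blue is below and red above that mean. The 3 columns of miR-151a UP are lower than the 3 of miR-NC in 38 of the 47 genes, and ORC4 runs the other way.

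Since many of these genes are known to be activated by E2F factors, their promoters were searched for letters that E2F factors are known to bind. The part of E2F factors in the lower levels was not tested. RefSeq promoters (GRCh38.p14) were found for 41 of the 47 genes, with 53 entries since 10 genes have several; MCM4, MCM5, GINS4, POLD3, RPA2 and RPA3 had none in the table. The 250 bases before each start were searched on both strands for the letters TTCCCGC, for TTGGCGC, for TTCGCGC and for TTGCCGC. At least 1 match was present in 24 of the 53 promoters (45.3%), against 10.9% of all 35116 promoters in the table and 13.8% of those of genes on the array. By call, 17 of 29 promoters of genes that fell (58.6%) and 7 of 24 promoters of genes that did not pass (29.2%) had a match; this difference was not tested. Counted by gene, these were 16 of 22 (72.7%) and 6 of 19 (31.6%), against 18.0% of the genes on the array that have a promoter entry. CCAAT was present in 55.2% of the promoters of genes that fell and 54.2% of those of genes that did not pass (32.8% of promoters of genes on the array), and GGGCGG in 72.4% and 66.7% (54.6%). An E2F-type match overlapped a CCAAT match in 3 promoters. A match is a description of letters and not a site in use. The sequences that follow read 5′ to 3′ along each gene, over 80 bases with a match. They come from the gene with the smallest p among those that fell and had a match in each group of proteins, and from MCM6, which had the most matches, 4, and did not pass. Capitals mark the matched letters, and matches on opposite strands overlap in ORC1 and MCM6.
ORC1: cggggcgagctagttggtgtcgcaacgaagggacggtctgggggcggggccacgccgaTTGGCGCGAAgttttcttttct
GMNN: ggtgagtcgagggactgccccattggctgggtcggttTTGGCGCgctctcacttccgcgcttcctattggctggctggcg
MCM3: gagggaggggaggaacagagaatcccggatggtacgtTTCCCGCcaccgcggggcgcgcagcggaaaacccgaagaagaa
GINS2: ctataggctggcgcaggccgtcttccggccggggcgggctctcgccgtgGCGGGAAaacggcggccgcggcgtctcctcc
CDC7: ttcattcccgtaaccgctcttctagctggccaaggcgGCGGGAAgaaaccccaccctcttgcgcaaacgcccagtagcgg
PRIM1: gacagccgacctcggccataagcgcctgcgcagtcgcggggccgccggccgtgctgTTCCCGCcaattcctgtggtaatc
RFC3: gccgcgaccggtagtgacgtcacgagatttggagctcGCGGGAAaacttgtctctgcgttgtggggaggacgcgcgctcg
PCNA: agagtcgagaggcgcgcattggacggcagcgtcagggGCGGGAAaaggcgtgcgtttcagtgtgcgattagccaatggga
RPA1: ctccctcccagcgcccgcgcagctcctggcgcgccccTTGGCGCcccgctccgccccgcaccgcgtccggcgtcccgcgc
RRM2: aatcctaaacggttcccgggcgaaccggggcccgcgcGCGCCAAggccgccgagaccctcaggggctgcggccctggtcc
MCM6: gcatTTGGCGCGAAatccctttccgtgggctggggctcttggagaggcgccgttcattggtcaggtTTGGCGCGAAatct
The windows lie at chr1:52404424-52404503 (minus strand) for ORC1, chr6:24775297-24775376 (plus strand) for GMNN, chr6:52284873-52284952 (minus strand) for MCM3, chr16:85688955-85689034 (minus strand) for GINS2, chr1:91500712-91500791 (plus strand) for CDC7, chr12:56752324-56752403 (minus strand) for PRIM1, chr13:33818057-33818136 (plus strand) for RFC3, chr20:5126639-5126718 (minus strand) for PCNA, chr17:1829799-1829878 (plus strand) for RPA1, chr2:10122339-10122418 (plus strand) for RRM2, and chr2:135876519-135876598 (minus strand) for MCM6. Of the genes that fell, POLE2, DBF4, MCM10, FEN1, MCM2 and CDC45 had no match in their promoters.

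Of the 6 subunits of the origin recognition complex, which marks origins, 1 passed the test. It was ORC1, the largest subunit, whose level is regulated in the cell cycle. ORC1 had intensities of 80.7, 74.0 and 79.5 with miR-151a UP, against 98.0, 100.3 and 95.7 with miR-NC. The groups did not overlap, and the log2 fold change was -0.33 with a 95% interval from -0.44 to -0.21 (adjusted p = 0.0053). ORC6 had 505, 519 and 501 with miR-151a UP, against 563, 558 and 561 with miR-NC. Its groups were also apart, at -0.14, but it did not pass (adjusted p = 0.063). It passed under 4 of the 14 alternatives, with a pseudocount of 32, the low filter, the variance trend and the mean over probe sets, which makes 2 of 6 lower, and its interval (-0.24 to -0.04) overlaps that of ORC1. ORC4 had 539, 545 and 576 with miR-151a UP and 503, 522 and 502 with miR-NC, with each miR-151a UP sample above each miR-NC sample. Its value was 0.12 (0.01 to 0.23; adjusted p = 0.14, 0.036 to 0.79 over the alternatives), and its 3 probe sets lay between -0.16 and 0.12. ORC3 was at -0.10 (-0.22 to 0.01), with all 7 of its probe sets below 0. ORC2 had 191, 196 and 210.4 with miR-151a UP and 209, 202 and 192 with miR-NC, at -0.02 (-0.15 to 0.11). ORC5 had 286, 289.9 and 294 with miR-151a UP and 293, 279 and 295 with miR-NC, at 0.01 (-0.10 to 0.11). Both of these core subunits overlapped between groups.

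Within each sample, log2 ORC1 minus log2 ORC4 changed by -0.44 between the groups. The differences were -2.72, -2.86 and -2.84 with miR-151a UP and -2.35, -2.37 and -2.38 with miR-NC. They could not overlap, since ORC1 was lower and ORC4 higher in every miR-151a UP sample. An exact two-sided permutation test therefore had to give p = 0.1, the smallest that 3 samples against 3 allow. It was 0.4 after adjustment over the 4 pairs tested in this way. Since this test cannot pass with 3 samples a group, it does not decide whether these subunits differ. The change in this pair was -0.35 with the mean over probe sets.

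Among the loading factors, CDT1 and its inhibitor GMNN both fell, and CDC6 did not pass. CDT1 had 285, 301 and 274 with miR-151a UP, against 351, 325 and 344 with miR-NC, a log2 fold change of -0.24 (-0.37 to -0.12; adjusted p = 0.023). GMNN had 472, 464 and 493 with miR-151a UP, against 583, 608 and 589 with miR-NC, at -0.32 (-0.42 to -0.21; adjusted p = 0.0040). In each of these genes the groups were well apart. Log2 CDT1 minus log2 GMNN differed by 0.07 between overlapping groups (exact permutation p = 0.4, adjusted 0.8), a test that cannot pass with 3 samples a group and does not show that the pair moved alike. The value was 0.02 without replicate 2 of either group, 0.13 without replicate 3 of miR-151a UP, 0.11 without replicate 1 of miR-NC and 0.14 with the mean over probe sets. CDC6, the ATPase that works with ORC, had 932, 935 and 972 with miR-151a UP and 979, 986 and 1025 with miR-NC. These values were close but did not overlap, at -0.07 (-0.18 to 0.03), while its dimmer probe set fell by 0.21 on the log2 scale (adjusted p over all probe sets 0.032). CDT1 rests on 1 of 3 probe sets, the others both being at -0.14. It did not pass when replicate 1 or 3 of either group was left out or with the replicate block, which leaves 1 of the 3 loading factors lower. Its adjusted p ran from 0.00054 to 0.080 over the 14 alternatives. With the mean over probe sets CDT1 did not pass (-0.17, adjusted p = 0.059), whereas CDC6 did (-0.14, adjusted p = 0.044). A contrast between CDT1 and CDC6 was thus not shown.

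The 6 subunits of the MCM2 to MCM7 helicase ring were all at negative values, from -0.27 to -0.09, and 3 of them fell. Of all genes, 52.6% had a negative value. In every one of the 6 the samples with miR-151a UP lay below those with miR-NC. MCM3 had 1223, 1197 and 1254 with miR-151a UP, against 1423, 1484 and 1522 with miR-NC, at -0.27 (-0.38 to -0.16; adjusted p = 0.0086), and all 4 of its probe sets fell. MCM2 had 510.4, 520.3 and 522 with miR-151a UP, against 611, 577 and 607 with miR-NC, at -0.21 (adjusted p = 0.021), and 2 of its 4 probe sets fell. MCM4 had 1184, 1198 and 1134 with miR-151a UP, against 1449, 1377 and 1289 with miR-NC, at -0.23 (adjusted p = 0.034), and 4 of its 5 probe sets fell. The remaining subunits did not pass. MCM7 had 1948, 2018 and 2082 with miR-151a UP, against 2226, 2231 and 2263 with miR-NC, at -0.15 (-0.26 to -0.05, adjusted p = 0.062). Its other 3 probe sets lay between -0.14 and -0.01, and the mean over probe sets gave -0.08 (adjusted p = 0.21). MCM6 had 1296, 1349 and 1376 with miR-151a UP, against 1429, 1454 and 1491 with miR-NC, at -0.12 (-0.23 to -0.01; adjusted p = 0.13). MCM5 had 292, 305 and 297 with miR-151a UP and 309, 316 and 324 with miR-NC, at -0.09 (-0.19 to 0.02; adjusted p = 0.27). These intervals overlap those of the subunits that fell, so a split within the ring was not shown. With a pseudocount of 32 or the variance trend MCM6 and MCM7 passed too, which makes 5 of 6 lower. Of the 3 falls, 1 was left when replicate 1 of either group or replicate 2 or 3 of miR-151a UP was dropped, and 2 when replicate 2 or 3 of miR-NC was; MCM3 passed each time. The adjusted p ran from 0.00033 to 0.075 for MCM2 and from 0.00012 to 0.10 for MCM4 over the alternatives.

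MCM10, a scaffold that joins the helicase to polymerase alpha and is no part of the ring, fell. It had 194, 189 and 203 with miR-151a UP, against 243, 240.4 and 253 with miR-NC, at -0.33 (-0.44 to -0.21; adjusted p = 0.0041). Its 2 dimmer probe sets, at -0.22 and -0.11, did not pass, and the mean over probe sets gave -0.22 (adjusted p = 0.023, 3.1e-05 to 0.023 over the alternatives).

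Both subunits of the kinase that fires origins had the largest falls of the list. CDC7, the catalytic subunit, had 104, 113 and 109 with miR-151a UP, against 152, 148 and 139 with miR-NC, and fell by 25.5% (log2 fold change -0.42, -0.55 to -0.30; adjusted p = 0.0023). DBF4, its activating partner, had 301, 299 and 277 with miR-151a UP, against 399.9, 377 and 379 with miR-NC, and fell by 24.1% (-0.40, -0.52 to -0.28; adjusted p = 0.0026). The groups were far apart in each. Their intervals overlap those of RFC3 and POLE2, and the order of these genes changed with the processing. With a pseudocount of 32, RFC3 was at -0.37, DBF4 at -0.36 and CDC7 at -0.34. With the mean over probe sets, POLE2 was at -0.39, DBF4 at -0.38 and CDC7 at -0.34. All 7 probe sets of DBF4 fell, between -0.44 and -0.33, and all 3 of CDC7 were at -0.29 or below with 2 past the threshold. Log2 DBF4 minus log2 CDC7 differed by 0.03 between the groups, and by -0.03 to 0.07 without 1 sample (exact permutation p = 0.8, in a design that cannot pass).

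Of the helicase activators CDC45 and GINS, 3 of 5 fell, and the groups were apart in all 5. GINS4 had 242, 253 and 246 with miR-151a UP, against 323, 315 and 318 with miR-NC, at -0.37 (-0.47 to -0.27; adjusted p = 0.0016). GINS2 had 283, 311 and 285 with miR-151a UP, against 364, 362 and 361 with miR-NC, at -0.31 (-0.43 to -0.19; adjusted p = 0.0070). CDC45 had 281, 293 and 306 with miR-151a UP, against 329, 352 and 354 with miR-NC, at -0.24 (adjusted p = 0.024), and all 3 of its probe sets fell. The other subunits of the 4-part GINS complex did not pass. GINS3 had 281, 272 and 304 with miR-151a UP, against 329.6, 311 and 324 with miR-NC, at -0.17 (-0.30 to -0.04; adjusted p = 0.082). GINS1 had 244, 253 and 249 with miR-151a UP, against 278, 278 and 263 with miR-NC, at -0.13 (-0.24 to -0.03; adjusted p = 0.097). The probe sets of GINS4 disagreed: 2 of 4 fell and a dim one, at an intensity of 9.86 with miR-151a UP and 8.96 with miR-NC, was at 0.12, so that their mean was at -0.17. CDC45 did not pass without miR-151a UP replicate 1 or 2 or miR-NC replicate 2 or 3, which leaves 2 of the 5 lower, whereas GINS1 and GINS3 passed with a pseudocount of 32 and with the variance trend, which makes 5 of 5 (the adjusted p of CDC45 ran from 0.00065 to 0.083 over the alternatives).

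Of the 9 polymerase and primase subunits, 4 fell, and all 9 were at negative values, where 52.6% of all genes had a negative value. POLE2, the accessory B subunit of polymerase epsilon, had 208, 218 and 213 with miR-151a UP, against 285, 272 and 280.2 with miR-NC, at -0.39 (-0.49 to -0.28; adjusted p = 0.0015). POLE, the catalytic subunit of the same enzyme, had 248, 248 and 246 with miR-151a UP and 271, 266 and 279 with miR-NC, at -0.14 (-0.24 to -0.03; adjusted p = 0.077). The intervals of these partners do not overlap, the groups were apart in each gene, and the difference between the partners was not tested. POLE passed with a pseudocount of 32, the low filter, the variance trend and the mean over probe sets. Each of these makes 3 of 5 delta and epsilon subunits lower. The adjusted limma p of POLE ran from 0.017 to 0.22 over the alternatives. In the priming enzyme, the polymerase subunit POLA1 had 248, 257 and 272 with miR-151a UP, against 314, 332 and 342 with miR-NC, at -0.34 (adjusted p = 0.0057). The catalytic primase PRIM1 had 216, 223 and 230.3 with miR-151a UP, against 273, 271 and 278 with miR-NC, at -0.30 (adjusted p = 0.0050). Their partners POLA2 at -0.22 (-0.38 to -0.05; adjusted p = 0.082) and PRIM2 at -0.16 (-0.33 to 0.00; adjusted p = 0.18) did not pass, and PRIM2 overlapped between groups. With the mean over probe sets POLA2 (adjusted p = 0.025) and PRIM2 (adjusted p = 0.016) both passed, which makes 4 of 4 in this enzyme. POLA2 also passed without miR-151a UP replicate 3, with a pseudocount of 32 and with the variance trend, which makes 3 of 4 (its adjusted p ran from 0.0051 to 0.22 over the alternatives, and that of PRIM2 from 0.016 to 0.40).

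Polymerase delta, the main lagging strand enzyme, had 1 of its 3 listed subunits lower. POLD3, an accessory subunit, had 126, 135 and 133 with miR-151a UP, against 148, 147 and 148 with miR-NC, at -0.17 (-0.27 to -0.06; adjusted p = 0.044). It did not pass when any 1 of the 6 samples was left out, which leaves 1 of the 5 delta and epsilon subunits lower, and its adjusted p ran from 0.0032 to 0.12 over the alternatives. Its 2 dimmer probe sets fell further, at -0.35 and -0.28, so that the mean over probe sets was -0.27. The catalytic subunit POLD1 had 246, 224 and 235 with miR-151a UP and 244, 255 and 281 with miR-NC, overlapping, at -0.14 (-0.30 to 0.01). POLD2 had 1382, 1442 and 1449 with miR-151a UP and 1495, 1493 and 1490.5 with miR-NC, close together but not overlapping, at -0.07 (-0.17 to 0.03).

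The clamp loader had 2 of 5 subunits lower and others near 0. RFC3 had 448, 442 and 456 with miR-151a UP, against 584, 582 and 604 with miR-NC, and fell by 23.9% (-0.39, -0.49 to -0.29; adjusted p = 0.0012). RFC4 had 1024, 1035 and 1032 with miR-151a UP, against 1299, 1292 and 1264 with miR-NC, and fell by 19.8% (-0.32, -0.42 to -0.22; adjusted p = 0.0025). The groups were far apart in both of these small subunits. RFC1, the large subunit, had 384, 388 and 386 with miR-151a UP and 375, 383 and 395 with miR-NC, overlapping, at 0.01 (-0.10 to 0.11; adjusted p = 0.95). RFC2 had 632, 671 and 636 with miR-151a UP and 656, 689 and 676 with miR-NC, at -0.06 (-0.17 to 0.05). It also overlapped between groups, and the intervals of RFC1 and RFC2 lie above those of RFC3 and RFC4, though a difference between subunits was not tested. RFC5 had 588, 629.8 and 594 with miR-151a UP and 699.9, 662 and 613 with miR-NC, at -0.12 (-0.26 to 0.02; adjusted p = 0.24). For RFC5 the choice of probe set matters: 2 of its 4 fell, at -0.30 and -0.20, among them one nearly as bright as that used, and the mean was at -0.19 (adjusted p = 0.022, 0.022 to 0.51 over the alternatives). The other probe sets of RFC4 had intensities of 5.45 to 6.59, at the floor of the arrays, and a mean that includes them was at -0.13 (adjusted p = 0.057, 1.1e-07 to 0.057 over the alternatives).

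PCNA, the sliding clamp itself, and FEN1, which trims the flaps of Okazaki fragments, fell, and LIG1, which seals them, did not pass. PCNA had 1927, 1920.3 and 1786 with miR-151a UP, against 2446, 2340.1 and 2317 with miR-NC, and fell by 20.7% (-0.34, -0.45 to -0.22; adjusted p = 0.0047). FEN1 had 816, 858 and 812 with miR-151a UP, against 963, 985 and 941 with miR-NC, at -0.22 (adjusted p = 0.019). Neither gene overlapped between groups. LIG1 had 185, 173 and 172 with miR-151a UP and 172, 177 and 179 with miR-NC, fully overlapping, at 0.01 (-0.11 to 0.12; adjusted p = 0.95). The other 5 probe sets of LIG1 lay between -0.20 and -0.10, none past the threshold, and the mean over probe sets was -0.11 (adjusted p = 0.10, 0.10 to 0.96 over the alternatives). FEN1 did not pass without miR-151a UP replicate 1 or 3 or miR-NC replicate 1 or 2, which leaves 1 of these 3 genes lower (adjusted p from 8.9e-05 to 0.076 over the alternatives).

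**Figure D3:**
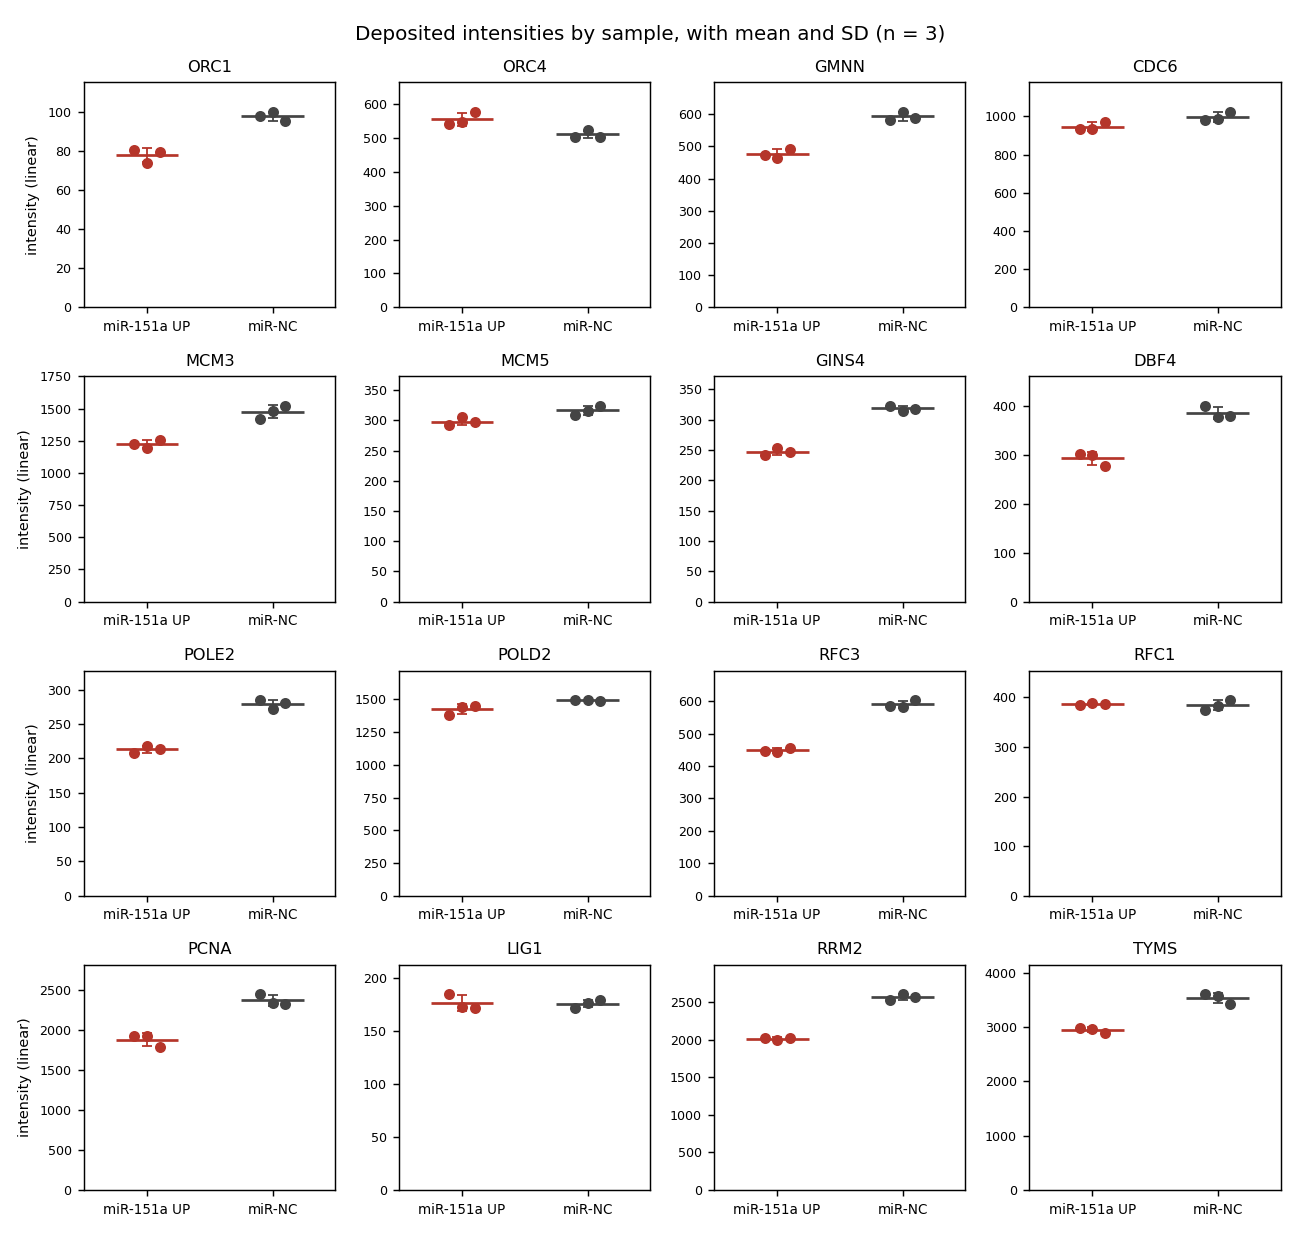
Deposited linear intensities of 16 genes in the samples with miR-151a UP (red) and miR-NC (grey), each point a sample, with the mean (bar) and SD (n = 3); each vertical axis starts at 0. RFC3, POLE2 and DBF4 are lower in every miR-151a UP sample, RFC1 and LIG1 overlap, and ORC4 is higher in every miR-151a UP sample.

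The single-strand binding protein RPA, which coats unwound DNA, had 2 of 3 subunits lower. RPA1, the large DNA-binding subunit, had 762, 847 and 849 with miR-151a UP, against 1035, 1077 and 1056 with miR-NC, at -0.37 (-0.50 to -0.24; adjusted p = 0.0047). RPA3 had 788, 818 and 818 with miR-151a UP, against 948, 921 and 1029.7 with miR-NC, at -0.26 (adjusted p = 0.019). RPA2, the subunit phosphorylated after damage, had 904, 903 and 949 with miR-151a UP and 977, 983 and 975 with miR-NC, at -0.09 (-0.19 to 0.01; adjusted p = 0.22). The groups were apart in all 3 genes. A second, dimmer probe set of RPA1 was at -0.04 and the mean of both at -0.20. RPA3 did not pass when replicate 1 or 3 of either group was left out, leaving 1 of 3 lower (adjusted p from 3.9e-05 to 0.060 over the alternatives).

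Of the classes with more than 2 genes, nucleotide supply was the one in which every gene fell, 4 of 4, at a median of -0.30. RRM2, the radical-bearing subunit of ribonucleotide reductase, had 2025, 1996 and 2019.9 with miR-151a UP, against 2525, 2606 and 2573 with miR-NC, and fell by 21.6% (-0.35, -0.45 to -0.25; adjusted p = 0.0017). RRM1, its large partner, had 1474, 1538 and 1506 with miR-151a UP, against 2003, 1816 and 1868 with miR-NC, and fell by 20.5% (-0.33; adjusted p = 0.0054). Neither overlapped, and log2 RRM2 minus log2 RRM1 differed by -0.02 between the groups, and by -0.07 to 0.02 without 1 sample (exact permutation p = 0.8, in a design that cannot pass). TYMS, which makes thymidylate from deoxyuridylate, had 2988, 2973 and 2901 with miR-151a UP, against 3613, 3580.4 and 3437 with miR-NC, at -0.26 (-0.37 to -0.16; adjusted p = 0.0074). TK1, the S phase thymidine kinase, had 978, 1053 and 1009 with miR-151a UP, against 1239, 1154 and 1211 with miR-NC, at -0.25 (adjusted p = 0.017). Every one of the 10 probe sets of these 4 genes fell. TK1 did not pass when replicate 1 or 3 of either group was left out, with adjusted p from 2.6e-05 to 0.067 over the alternatives.

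The check over all probe sets of the list gave the same direction. Of 126 probe sets, 56 fell (44.4%) and 0 rose at an adjusted limma p of 0.05 over 49293 probe sets, of which 7.27% fell and 6.81% rose. At an unadjusted limma p under 0.05, 80 were lower and 1 higher, where the share of all probe sets was not counted. Among the 79 probe sets that were not the brightest of their gene, 31 fell and 71 were below 0. By the brightest probe set, 52.6% of all genes were below 0. At least 1 probe set fell for 28 of the 47 genes, and of the 34 genes with several probe sets 27 had every one below 0 and 7 had every one past the threshold. The probe set used has the suffix that marks probes shared with other transcripts (_x_at) for 7 genes, 5 of which fell. For 8 more it has the suffix of a set shared between transcripts (_s_at), and MCM4, GINS4, RPA1 and RRM1 of these fell, so other transcripts may add to the values of both kinds. The count of 56 became 34, 36, 31 and 36 without miR-151a UP replicates 1 and 3 and miR-NC replicates 1 and 3.

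**Figure D4:**
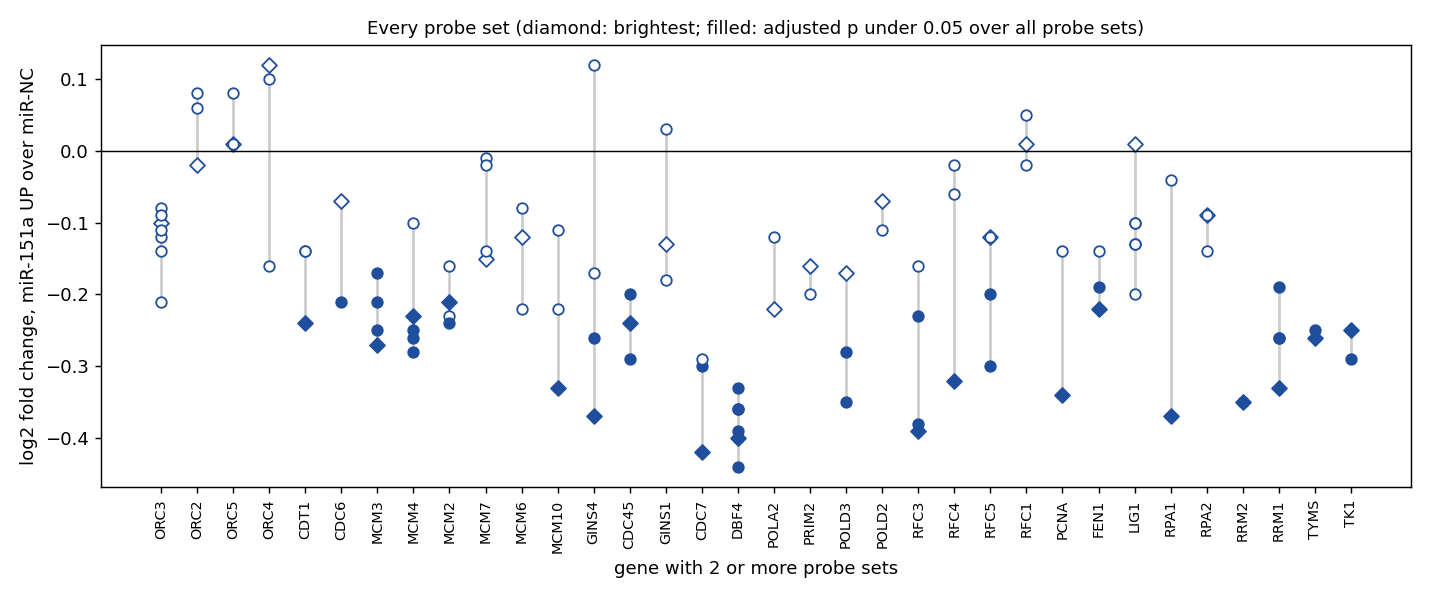
Log2 fold change (miR-151a UP over miR-NC) of every probe set of the 34 genes with 2 or more; diamonds are the brightest probe set of a gene and filled symbols passed an adjusted p of 0.05 over all probe sets. The 7 probe sets of DBF4 lie together between -0.44 and -0.33, whereas those of GINS4 run from -0.37 to 0.12.

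Related genes outside the list showed where the lower levels extended and where they did not. Of 46 measured genes in 5 related lists, 26 fell and 1 rose, with a median of -0.21, where 8.11% of all genes fell. The 26 became 17 without miR-NC replicate 2 and 18 to 20 without any other single sample. Of 20 fork accessory genes, 9 fell, among them the histone chaperone ASF1B at -0.40 (adjusted p = 0.0019), the MCM-binding protein MCMBP at -0.32 and TOPBP1, which helps recruit the activators of the helicase, at -0.34. POLD4, the smallest subunit of polymerase delta, was at 0.08 (adjusted p = 0.30). Of 11 regulators of licensing and S phase entry, 9 fell, among them the cyclin genes CCNE2 at -0.55 and CCNA2 at -0.53 and the ubiquitin ligase gene SKP2 at -0.54. E2F1, an activating E2F factor, had 204, 211 and 211 with miR-151a UP, against 266, 251 and 257 with miR-NC (-0.30, adjusted p = 0.0045). E2F2 also fell, at -0.30 (adjusted p = 0.03), and E2F3 was at -0.02. Of the proliferation markers, MKI67 fell by 26.5% and TOP2A fell by 19.7%.

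Of 11 other nucleotide supply genes, 5 fell and 1 rose. The gene that rose was RRM2B, the p53-inducible alternative to RRM2 in ribonucleotide reductase, with 912, 877 and 837 with miR-151a UP, against 744, 730 and 727 with miR-NC. Its groups did not overlap, and it stood at 0.25 (0.14 to 0.37; adjusted p = 0.012) where RRM2 stood at -0.35. SAMHD1, which breaks deoxynucleotides down, had 149.6, 144 and 161 with miR-151a UP, against 221, 213 and 222 with miR-NC, and fell by 30.8% (-0.53; adjusted p = 0.00091). DUT, which clears dUTP and feeds TYMS, had 2056, 2214 and 1993 with miR-151a UP, against 2460.1, 2629 and 2674 with miR-NC (-0.31; adjusted p = 0.011). The mitochondrial salvage kinases TK2 and DGUOK were both at -0.01 (adjusted p = 0.91 and 0.89). The 5 falls became 3 when replicate 2 of either group or replicate 1 of miR-151a UP was left out. They became 2 when replicate 3 of either group or replicate 1 of miR-NC was left out, and with the replicate block. The count of rises was 1 each time. The helicase paralog MCM8, which acts in recombination, fell by 16.0% (adjusted p = 0.017), and MCM9 was at -0.15. The count of 1 for this pair became 0 when replicate 3 of either group, replicate 1 of miR-151a UP or replicate 2 of miR-NC was left out. It was also 0 with the replicate block and with the mean over probe sets, and 2 when replicate 1 of miR-NC was left out.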

How the data were processed

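Messenger RNA of 6 samples of U87 cells was measured on 1-colour arrays. The values are linear intensities per probe set as deposited by the authors, with closely similar medians in all arrays; MAS5 stands among the tools in the submitters' processing notes, whereas background correction, summarization and scaling are steps not given in the sources used here. Scaling of arrays to a common level would hide a change common to most transcripts. Groups and replicate numbers came from the sample titles. The 102 control probe sets were left out, and of 49293 others, 44988 named 1 gene, 1832 several and 2473 none. Values were transformed as log2(intensity + 1) and tested by limma (version 3.58.1, R 4.3.3), with lmFit and eBayes on the 2 groups alone; p-values were adjusted by Benjamini-Hochberg across the 18132 genes or across the probe sets, with a threshold of 0.05 and 95% intervals. The fit was tested on simulated data. Within-sample pairs were tested by exact permutation over 20 arrangements. The genes and lists were chosen with earlier results of these data known. All 47 genes are accounted for. Sample values are given for up to 4 passing genes per class by smallest p and up to 2 with the largest p. Related genes are named up to 3 per list by smallest p. Other sample values and POLD4, E2F1, E2F2, E2F3, TK2 and DGUOK were chosen after their values were seen. Promoters came from RefSeq. Figures were drawn with matplotlib 3.10.9 in Python 3.11.15.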

Additional observations from a re-analysis of the deposited data

How the results depend on the processing

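The alternatives changed the scaling (quantiles or medians), the pseudocount (32), the gene filter (dropping those under the 0.25 quantile of level), the variance model (trend and robust), the weights of arrays, the block (replicate number), the probe sets (their mean) or the samples (1 left out). Over 14 alternatives the count of 26 lower genes ran from 18 to 33, and 17 genes were lower under every one. Of 658 comparisons of a gene with an alternative, 588 kept their side of the threshold, 43 lost a call, 27 gained one and 0 passed in the opposite direction, while RFC1, LIG1, ORC5 and ORC2, which never passed, kept their sign in 7, 9, 9 and 10 of the 14. The 0 rises became 1, ORC4, with a pseudocount of 32 and 1 with the variance trend. Gene counts over the whole array moved more: 1470 lower genes became 2218 with a pseudocount of 32, 2388 with the trend, 822 with the replicate block and 800 to 1021 without 1 sample. The 56 lower probe sets became 34 with the replicate block and 31 to 39 without 1 sample. Same-numbered samples did not deviate together (correlations -0.11, -0.15 and 0.07), so the numbers were not taken as pairs; the replicate block left 21 genes lower. The ORC1 minus ORC4 change of -0.44 became -0.35 with a pseudocount of 32 and -0.35 with the mean over probe sets, and lay between -0.49 and -0.42 without 1 sample. Array values near the floor, as for the dim probe sets of RFC4 and GINS4, carry little signal over background.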
